A study of Mus musculus with 12 samples.

Results

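Ribosome biogenesis is the making of ribosomes in and around the nucleolus, where RNA polymerase I transcribes the ribosomal RNA precursor, small nucleolar RNPs modify it, and separate sets of assembly factors build the small and the large subunit. Nucleolin, nucleophosmin and fibrillarin are the best known proteins of this compartment, and the factors are used by every cell of a tissue, with higher demand in cells that grow or start to make more protein. In cartilage, chondrocytes that secrete matrix depend on this machinery. The genes described here are a list of 51 names of nucleolar proteins and ribosome assembly factors. The list was chosen with earlier results of these data known. Its genes were matched by name alone: a gene was taken where the symbol of a probe in the normalized table equalled a name on the list, without regard to case. By that rule 29 of the 51 were found, on 44 probes, out of 15424 genes in the table.

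A further 13 names were found in the table only under an older symbol, matched by RefSeq accession or by the name the same probe carries in the non-normalized table, and these are given beside the 29 and counted apart because they were added after the data were seen. They were Polr1a, Polr1b, Polr1c, Polr1e, Wdr43, Rrp9, Imp4, Noc4l, Pno1, Rrp1b, Noc3l, Mrto4 and Wdr74. The other 9 names, Wdr12, Wdr36, Rrs1, Ddx56, Dkc1, Tsr1, Nol9, Utp15 and Utp20, had no probe in the normalized table and are not analysed here.

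RNA of hip cartilage from C57BL6 mice aged 4 to 6 weeks by the labels was hybridized to Illumina mouse BeadChips, with 12 arrays in 4 groups of 3. The genotypes were WT and a knockout of Mapk9 (Mapk9 KO), the gene of a c-Jun N-terminal kinase, and each had a control group and an injured group. Injury was made by avulsion of the femoral epiphysis, after which the cartilage was kept in serum-free culture until 4 h post injury, while control cartilage was snap-frozen at once. Injury and culture therefore cannot be told apart in these data. By the methods each replicate was a pool of hips from several mice, stated for control and injured cartilage without naming the genotype, and the methods give a slightly narrower age range than the labels. The labels do not say whether the knockout was in all cells or in chondrocytes only. Values are log2 expression after the authors' vsn normalization, so a difference of 1 is a doubling. They compare the same probe between arrays and not one gene with another.

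The targeted gene was lower on the arrays labelled Mapk9 KO. The brighter Mapk9 probe read 10.88, 10.90 and 10.50 in WT control and 9.14, 9.28 and 9.15 in Mapk9 KO control, a difference of -1.57 (limma adjusted p = 0.0151, and 0.061 with the replicate number as a block). The dimmer probe was not well above background on any knockout array. All 11 chondrocyte markers examined were detected on every array. Between 16930 and 18969 probes were detected per array at a detection p under 0.05, array medians lay between 7.55 and 7.70, and correlations between arrays ranged from 0.868 to 0.986. Of the 29 genes, 26 were detected on all 12 arrays. Ftsj3 was detected on 9, Wdr3 on 6 and Nolc1 on 1.

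The stretches upstream of the start site are shown for some of the genes whose levels are described below and for some that carry either of 2 short motifs. Those of Ddx10, Ddx54, Nolc1, Polr1c and Imp4, which also carry a motif, are not shown. The motifs were CACGTG, the E-box bound by Myc and related factors, which is its own reverse complement, and CCGGAAG with its reverse complement CTTCCGG, a core of the sites of ETS-family factors, which was chosen after the data were seen. Sequences are those of RefSeq on GRCm38.p6, read 5′ to 3′ on the strand of the gene, with a motif in capitals. The 250 bases before the start of Pes1 (chr11:3963725-3963974, plus strand) and of Mybbp1a (chr11:72441077-72441326, plus strand) held neither motif, and those of Heatr1 (chr13:12395125-12395374, plus strand) held CCGGAAG, whose first base lies 16 bases before the start.
Pes1: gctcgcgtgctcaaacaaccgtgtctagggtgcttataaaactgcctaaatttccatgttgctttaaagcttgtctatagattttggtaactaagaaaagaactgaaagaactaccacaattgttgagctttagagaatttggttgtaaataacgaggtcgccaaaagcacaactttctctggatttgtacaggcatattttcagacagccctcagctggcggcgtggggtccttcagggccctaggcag
Mybbp1a: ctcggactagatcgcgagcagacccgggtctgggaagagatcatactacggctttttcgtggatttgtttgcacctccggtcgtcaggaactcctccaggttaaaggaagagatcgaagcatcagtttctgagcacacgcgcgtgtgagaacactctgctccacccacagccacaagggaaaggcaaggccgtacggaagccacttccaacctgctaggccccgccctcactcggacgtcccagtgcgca
Heatr1: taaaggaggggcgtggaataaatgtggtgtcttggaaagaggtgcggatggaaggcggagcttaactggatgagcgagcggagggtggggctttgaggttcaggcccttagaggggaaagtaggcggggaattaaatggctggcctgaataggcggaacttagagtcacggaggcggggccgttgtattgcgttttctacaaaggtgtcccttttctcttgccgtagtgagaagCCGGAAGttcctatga

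Shorter stretches around the motif are shown for Grwd1 (chr7:45830812-45830838, minus strand), Nip7 (chr8:107056764-107056790, plus strand) and Wdr74 (chr19:8735802-8735828, plus strand), which carry CCGGAAG, and for Nol11 (chr11:107189409-107189434, minus strand), the 1 gene with CACGTG in this window among the 24 of the 29 that had a promoter entry.
Grwd1: gaggtgaaacCCGGAAGtgacgctctc
Nip7: ctttcggtccCCGGAAGtccgccacgg
Wdr74: tagtggcgcgCCGGAAGtgcaagccac
Nol11: tgagcgttcgCACGTGgtctagactc

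Of the 24 genes with a promoter entry among the 29, 1 held CACGTG within 250 bases (4.17%), against 1331 of 17491 protein-coding genes (7.61%). CCGGAAG or its reverse complement stood before 6 of the 24 (25.0%), namely Ddx10, Ddx54, Grwd1, Heatr1, Nip7 and Nolc1, against 10.2% of all. Among the 13 genes under an older symbol, Imp4 held CACGTG, and Polr1c and Wdr74 held CCGGAAG. These are counts of letters in one window, with no test, and genes with the letters were found among those that rose (Grwd1, Nip7) and among those whose brightest probe did not pass the test in either genotype without the block (Heatr1, Ddx54).

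In WT cartilage most of these genes were higher post injury. The log2 change was above 0 in 25 of the 29 genes, with a median of 0.55 against -0.02 over all 15424 genes. Past an adjusted p under 0.05 by limma, 7 genes rose, Fbl, Mybbp1a, Wdr3, Gtpbp4, Ftsj3, Noc2l and Grwd1, and 0 fell, where 12.7% of all genes rose and 12.7% fell by that rule. With a fitted fold above 2 in addition, 3 were called, Gtpbp4, Ftsj3 and Wdr3, against a background of 7.51%. Wdr3 was not above background on any WT control array, so its fold is only a bound below 2, and 2 are left without it. All 3 injured arrays lay above all 3 control arrays in 16 of the 29, where 20.5% of all genes did so. At an unadjusted p under 0.05, 16 were higher and 0 lower, where 18.3% of all genes were higher.

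In Mapk9 KO cartilage most of these genes were also higher post injury. The change was above 0 in 26 of the 29, with a median of 0.36 against -0.04 over all genes (0.34 with Wdr3, whose control arrays were not above background, at its bound). Past the adjusted p, 9 genes rose, Ddx10, Ftsj3, Grwd1, Gtpbp4, Nip7, Nle1, Noc2l, Pes1 and Wdr3, and 0 fell, against 18.1% of all genes that rose and 20.3% that fell. With the replicate number as a block 13 were called higher, against 21% of all genes, since Npm1 (adjusted p = 0.0439), Heatr1 (0.0331), Ebna1bp2 (0.0437) and Ddx54 (0.0496) were added. In that fit 1 was called lower, against 23.7% of all genes: Nolc1, which was not above background on any Mapk9 KO array, so that its value is no measured change. With a fold above 2, only Pes1 was called, against a background of 9.01%. The injured arrays lay above all controls in 16 of the 29, where 23.7% of all genes did. At an unadjusted p under 0.05, 12 were higher and 0 lower, where 21.9% of all genes were higher.

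These counts rest on the brightest probe of each gene. A further 15 dimmer probes belonged to 11 of the 29 genes. In WT, 3 of them, for Npm3 and Heatr1, passed the adjusted p where the brightest did not, and 2, both for Mybbp1a, did not pass where the brightest did. In Mapk9 KO the first held for 3 probes, of Heatr1, Gnl2 and Ddx27, and the second for 1, of Grwd1. The sign was opposite for 3 probes in WT, of Ddx10 and Ebna1bp2, and for 3 in Mapk9 KO, of Ebna1bp2, Mybbp1a and Ncl.

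**Figure D1:**
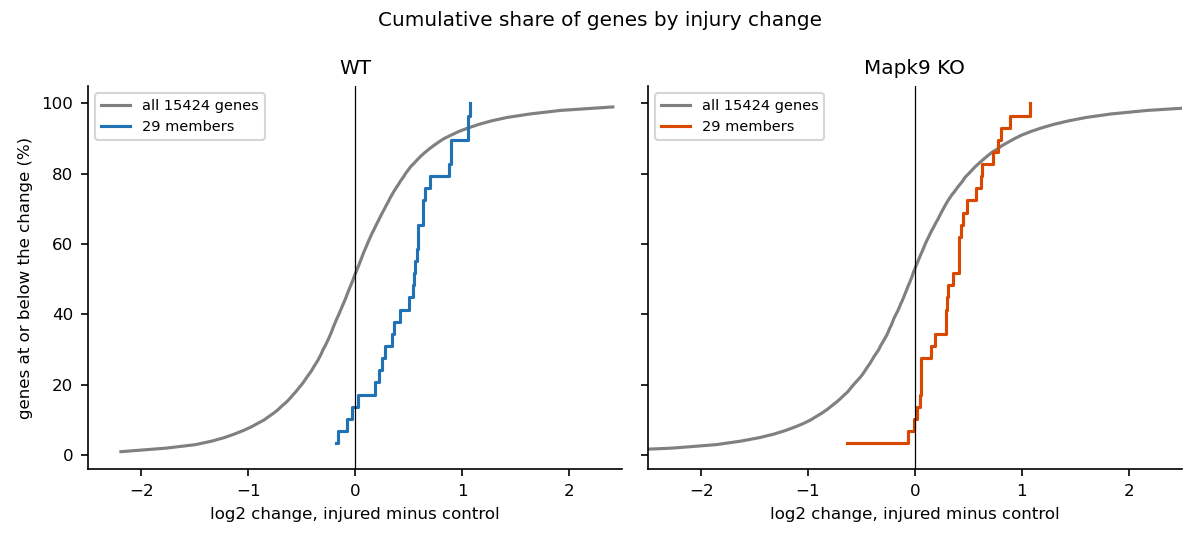
Cumulative share of genes (percent, y axis) at or below each log2 change, injured minus control (x axis), for the 29 genes found by symbol (coloured steps) and all 15424 genes (grey), in WT (left) and Mapk9 KO (right). The steps lie to the right of the grey line over most of their range, with medians of 0.55 and 0.36, and cross it near their upper end, where the largest fitted changes of the 29 are 1.08 in WT and 1.08 in Mapk9 KO.

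The 2 injury comparisons share no array, and their changes can be set side by side. Of the 29 genes, 24 were above 0 in both genotypes, and 5 passed the adjusted p upward in both, Ftsj3, Grwd1, Gtpbp4, Noc2l and Wdr3, where 10.8% of all genes did. The changes correlated across the 29 genes with a Pearson r of 0.70 and a Spearman rho of 0.68, a description over genes measured on the same arrays. Taking arrays of the same replicate number as pairs, the median difference was 0.34, 0.44 and 0.72 in the 3 WT pairs and 0.41, 0.30 and 0.37 in the 3 knockout pairs. All 3 pairs were higher after injury in 21 of the 29 genes in WT, where 29.8% of all genes were, and in 20 in Mapk9 KO, where 32.2% were.

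RNA polymerase I and its cofactors were represented by Mybbp1a, a nucleolar Myb-binding protein linked to ribosomal RNA transcription, and under older symbols by 4 polymerase subunits. Mybbp1a read 10.19, 9.66 and 10.08 in WT control and 10.61, 10.59 and 10.84 in WT injured cartilage. In Mapk9 KO it read 10.03, 10.06 and 10.20 in the controls and 10.24, 10.42 and 10.52 after injury. The groups did not overlap in either genotype. The change was 0.70 ± 0.21 (SE) in WT (limma adjusted p = 0.0357) and 0.30 ± 0.17 in Mapk9 KO (adjusted p = 0.193). The WT call of Mybbp1a was kept in 2 of the 6 fits that left out an array, and was lost without control replicate 2 or any one of the injured arrays, with changes from 0.54 to 0.81. The other 2 probes of Mybbp1a overlapped between groups in both genotypes, at 0.47 (adjusted p = 0.197) and 0.59 (adjusted p = 0.228) in WT and -0.10 and 0.70 in Mapk9 KO. The probe at 0.70 passed in Mapk9 KO only with the replicate number as a block (adjusted p = 0.0136, against 0.0722 without it).

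Among the polymerase subunits, Polr1e, a subunit of the part that serves initiation and elongation, changed by 0.69 ± 0.22 in WT (adjusted p = 0.0446) and by 0.19 ± 0.19 in Mapk9 KO (adjusted p = 0.476). Leaving out any array but control replicate 2 ended its WT call. Polr1a, the largest subunit, changed by 0.50 in WT and 0.16 in Mapk9 KO, and neither value passed the test. Its other 2 probes gave 0.59 (adjusted p = 0.0512) and 0.65 (adjusted p = 0.0358) in WT and 0.06 and 0.17 in Mapk9 KO, so that 1 of the 3 passed in WT without the block. The probe at 0.59 passed there with the block (adjusted p = 0.0444). Polr1b, the second catalytic subunit, and Polr1c, which RNA polymerase III also uses, stood at 0.24 and 0.44 in WT and 0.31 and 0.13 in Mapk9 KO, again without passing it. All 5 genes of this group were above 0 in both genotypes, 2 passed the adjusted p in WT (40.0%, against 12.7% of all genes) and 0 in Mapk9 KO (against 18.1%).

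Nucleolar chaperones and snoRNP proteins were the group with the defining proteins of the nucleolus. In WT, 1 of its 5 genes, Fbl, passed the test on its brightest probe (20.0%, against 12.7% of all genes), and in Mapk9 KO 0 did (against 18.1%). Fbl encodes fibrillarin, the methyltransferase of box C/D small nucleolar RNPs. It read 11.32, 11.09 and 10.86 in WT control and 11.99, 12.12 and 11.85 in WT injured cartilage. The knockout arrays read 11.38, 11.45 and 11.30 in the controls and 11.65, 11.90 and 11.46 after injury. Groups did not overlap in either genotype, and the change was 0.90 ± 0.20 in WT (adjusted p = 0.0101) and 0.30 ± 0.18 in Mapk9 KO (adjusted p = 0.225). The WT call of Fbl was kept in all 6 fits without one array, with changes from 0.78 to 1.01. The non-normalized table gives this probe the name of another locus, so signal from a near-identical copy cannot be told apart from Fbl.

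Neither nucleolin nor nucleophosmin passed the test without the block. Ncl, a nucleolar RNA-binding protein, read 9.61, 9.86 and 9.40 in WT control, 9.77, 10.03 and 9.84 in WT injured, 9.55, 10.02 and 9.51 in Mapk9 KO control and 9.63, 9.87 and 9.66 in Mapk9 KO injured cartilage. Its groups overlapped in both genotypes, with changes of 0.26 ± 0.21 (adjusted p = 0.405) and 0.02 ± 0.19 (adjusted p = 0.937). Npm1, a histone and ribosomal protein chaperone, read 12.96, 13.10 and 12.17 in WT control and 13.15, 13.22 and 12.89 in WT injured cartilage. In Mapk9 KO it read 12.63, 12.98 and 12.63 in the controls and 13.07, 13.41 and 12.99 after injury. The WT groups of Npm1 overlapped, since injured replicate 3 lay below control replicates 1 and 2, the knockout groups did not, and the changes were 0.34 ± 0.26 (adjusted p = 0.381) and 0.41 ± 0.19 (adjusted p = 0.116, and 0.0439 with the block).

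Npm3, a related chaperone that binds nucleophosmin, changed by 0.63 ± 0.24 in WT (adjusted p = 0.0788, and 0.0374 with the block) and by 0.29 ± 0.22 in Mapk9 KO (adjusted p = 0.343) on its brightest probe. Its dimmest probe rose by 0.80 in WT (adjusted p = 0.0107). The third, which the non-normalized table names after a pseudogene and which may share signal with that copy, rose by 0.74 (adjusted p = 0.0371), and neither passed in Mapk9 KO without the block. With the block the dimmest probe passed there, at 0.45 (adjusted p = 0.0338), and the third did not (adjusted p = 0.0599). Nolc1, a nucleolar phosphoprotein that shuttles snoRNPs, was not well above background on 11 of 12 arrays, and its fitted values, -0.07 in WT and -0.63 in Mapk9 KO, are those of a probe at background.

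**Figure D2:**
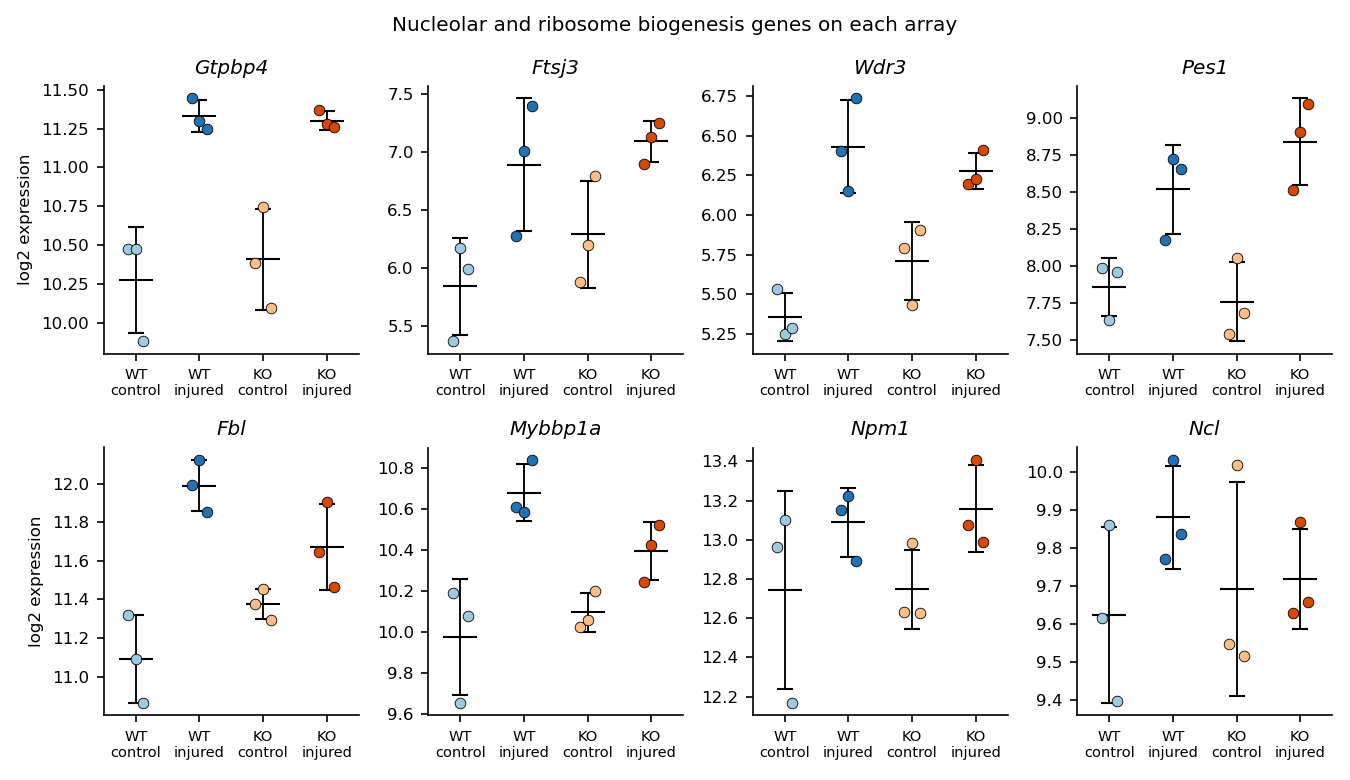
Log2 expression (y axis, a separate scale for each gene) of 8 genes on each of the 12 arrays, by group (x axis, KO for Mapk9 KO), with points for arrays and bars for mean ± SD of 3 arrays. For Gtpbp4, Ftsj3, Wdr3, Pes1, Fbl and Mybbp1a every injured array lies above every control array of its genotype in WT and in Mapk9 KO, while for Ncl the groups overlap in both and for Npm1 they overlap in WT.

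The small subunit group holds parts of the processome, the large particle that cuts and folds the precursor of the small subunit's RNA. Wdr3, a WD-repeat scaffold of that particle, read 5.53, 5.25 and 5.29 in WT control and 6.41, 6.15 and 6.74 in WT injured cartilage. Values in Mapk9 KO were 5.79, 5.43 and 5.91 in the controls and 6.20, 6.23 and 6.41 after injury. Wdr3 was not well above background on any of the 6 control arrays and was detected on all 6 injured arrays, so the fold is a bound: at least 1.5-fold higher in WT (adjusted p = 0.00551) and at least 1.27-fold higher in Mapk9 KO (adjusted p = 0.0331). The bound sets the injured mean against the dimmest detected signal of each control array or the probe's own signal where that was higher, while the measured difference was 1.08 ± 0.22 in WT and 0.57 ± 0.19 in Mapk9 KO. The WT call was kept without any one array. The knockout call was kept in 1 of 6 such fits, the one without control replicate 3, with changes from 0.43 to 0.67.

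The other small subunit genes found by symbol did not pass the test. Heatr1, a processome protein also needed for RNA polymerase I transcription, changed by 0.64 ± 0.24 in WT (adjusted p = 0.0777, and 0.0367 with the block) and 0.45 ± 0.19 in Mapk9 KO (adjusted p = 0.082), and its second, dimmer probe gave 0.87 (adjusted p = 0.0173) and 0.66 (adjusted p = 0.0166). The other 3, the processome proteins Wdr75, Nol6 and Nol11, lay between -0.18 and 0.02 in WT and between -0.06 and 0.06 in Mapk9 KO. Wdr75 and Nol11 were among the 4 genes below 0 in WT, with Nolc1 and Ddx18, and none of the 4 passed the test.

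Under older symbols the small subunit group gained its largest change. Wdr43, a processome protein of the same branch as Heatr1 and Wdr75, read 8.82, 8.93 and 8.51 in WT control and 9.99, 10.19 and 9.92 in WT injured cartilage. In Mapk9 KO it read 8.80, 8.85 and 8.66 in the controls and 10.02, 9.91 and 9.90 after injury. All injured arrays lay above all controls of the same genotype, with changes of 1.28 ± 0.20 (2.42-fold, adjusted p = 0.00158) and 1.18 ± 0.16 (2.26-fold, adjusted p = 0.000248). No array, left out, ended either call.

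Rrp9, which binds the small nucleolar RNA at the base of the processome, rose by 1.01 ± 0.21 in WT (adjusted p = 0.00727) and stood at 0.43 ± 0.17 in Mapk9 KO (adjusted p = 0.0777, and 0.0403 with the block). Imp4, a partner of the same RNP, Noc4l, a factor of small subunit maturation, and Pno1, a binding partner of the maturing small subunit, lay between 0.02 and 0.48 in WT and 0.01 and 0.25 in Mapk9 KO on their brightest probes and did not pass the test. The second probe of Imp4 passed in Mapk9 KO, at 0.55 (adjusted p = 0.0244), and stood at 0.15 in WT (adjusted p = 0.768). Over the 10 small subunit genes of both kinds, 3 passed the adjusted p in WT and 2 in Mapk9 KO, all upward, with medians of 0.46 and 0.17. These shares, 30.0% and 20.0%, stand against 12.7% and 18.1% of all genes, the second close to it. With the block Heatr1 and Rrp9 were added in Mapk9 KO, giving 4 of 10 (40.0%) against 21% of all genes.

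The PeBoW complex, which is needed for processing of the large subunit's RNA, had 2 genes in the normalized table, Pes1 and Bop1. Pes1 read 7.98, 7.63 and 7.96 in WT control and 8.17, 8.72 and 8.66 in WT injured cartilage. The corresponding Mapk9 KO values were 7.54, 8.05 and 7.68 in the controls and 8.51, 8.90 and 9.09 after injury. By brightest probe, Pes1 was the only one of the 29 with a fold above 2 in Mapk9 KO, at 1.08 ± 0.21 (2.11-fold, adjusted p = 0.00233), against 0.66 ± 0.22 in WT (adjusted p = 0.0539), and the groups did not overlap in either. The adjusted p of the knockout change stayed under 0.05 without any one array, but the change fell under a doubling, to 0.95 at the lowest, without control replicate 1 or without injured replicate 3. Bop1, its partner, changed by 0.59 ± 0.22 in WT (adjusted p = 0.073), where the groups did not overlap, and by 0.15 ± 0.26 in Mapk9 KO (adjusted p = 0.685), where they did.

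Large subunit assembly was the largest group, with 9 of the 29 genes. All 9 were above 0 in both genotypes, with medians of 0.59 and 0.62. Of these, 4 (44.4%) passed the adjusted p in WT and 6 (66.7%) in Mapk9 KO, against the 12.7% and 18.1% of all genes given above. All injured arrays lay above all controls for 8 of 9 in each genotype, where 20.5% of all genes did so in WT and 23.7% in Mapk9 KO. Gtpbp4, a nucleolar GTPase of the early large subunit, read 10.47, 10.47 and 9.88 in WT control and 11.45, 11.30 and 11.25 in WT injured cartilage. On the Mapk9 KO arrays it read 10.38, 10.75 and 10.10 in the controls and 11.37, 11.28 and 11.26 after injury. The 6 injured arrays of both genotypes lay within 0.2 of each other and above all 6 controls. The change was 1.06 ± 0.22 in WT (2.08-fold, adjusted p = 0.00688) and 0.89 ± 0.20 in Mapk9 KO (1.86-fold, adjusted p = 0.00456), and both calls by adjusted p were kept without any one array.

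Ftsj3, a relative of a yeast methyltransferase of the large subunit's RNA, read 5.36, 6.17 and 5.99 in WT control and 6.27, 7.01 and 7.40 in WT injured cartilage. In Mapk9 KO it read 5.88, 6.20 and 6.79 in the controls and 6.90, 7.13 and 7.25 after injury. It was detected on 1 of 3 WT control arrays and 2 of 3 knockout controls, and the spread within the control groups was wide. The change was 1.05 ± 0.31 in WT (adjusted p = 0.0333) and 0.80 ± 0.24 in Mapk9 KO (adjusted p = 0.0212). Each call was kept in 2 of 6 fits without one array. The WT call was lost without control replicate 1 or 3 or injured replicate 2 or 3, with changes from 0.80 to 1.36, and the knockout call without control replicate 1 or 2 or injured replicate 2 or 3, with changes from 0.60 to 1.05.

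Noc2l, a nucleolar shuttling partner of assembling large subunits, rose by 0.90 ± 0.20 in WT (adjusted p = 0.0096) and 0.63 ± 0.17 in Mapk9 KO (adjusted p = 0.0122), and no array, left out, ended either call. Grwd1, a chaperone that escorts a ribosomal protein to the nucleolus, rose by 0.88 ± 0.23 in WT (adjusted p = 0.0184) and 0.62 ± 0.19 in Mapk9 KO (adjusted p = 0.0268), with the WT call lost without injured replicate 2 or 3 and the knockout call lost without control replicate 1 or 2 or injured replicate 1 or 2. These 2 genes, like the others named here for passing the adjusted p alone, were picked after their values were seen.

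Nip7, a large subunit processing factor, and Nle1, whose yeast relative works in a late step of nuclear large subunit maturation, passed the test in Mapk9 KO alone. Nip7 rose by 0.78 ± 0.19 there (adjusted p = 0.00726) and stood at 0.59 ± 0.22 in WT (adjusted p = 0.0738). Nle1 rose by 0.48 ± 0.18 in Mapk9 KO (adjusted p = 0.0499) and stood at 0.55 ± 0.21 in WT (adjusted p = 0.0868). The knockout call of Nle1 was kept in 1 of 6 fits without one array, the one without control replicate 2. Gnl2, Gnl3 and Ebna1bp2, nucleolar GTPases and a scaffold of the early large subunit, lay between 0.42 and 0.58 in WT and 0.36 and 0.44 in Mapk9 KO on the brightest probe found by symbol, without passing the test. With the block, Gnl3, the nucleostemin gene, passed in WT (adjusted p = 0.0472) and Ebna1bp2 in Mapk9 KO (adjusted p = 0.0437). The second Gnl2 probe, detected on 8 of 12 arrays, rose by 1.02 in Mapk9 KO (2.03-fold, adjusted p = 0.0216) and stood at 0.35 in WT (adjusted p = 0.313). Of the 2 further Gnl3 probes listed under an older symbol, the dimmer passed in Mapk9 KO, at 0.83 (adjusted p = 0.00387) against 0.75 in WT (adjusted p = 0.0594), and the other stood at 0.49 (adjusted p = 0.053) and 0.54 (adjusted p = 0.137). With the block the dimmer passed in WT as well (adjusted p = 0.0479), and the other passed in Mapk9 KO (adjusted p = 0.0254).

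Under older symbols, Wdr74, which helps remodel the nucleolar large subunit, rose by 1.08 ± 0.20 in WT (2.11-fold, adjusted p = 0.00394) and 0.82 ± 0.16 in Mapk9 KO (adjusted p = 0.00271). Noc3l, a partner of Noc2l, rose by 0.79 ± 0.22 (adjusted p = 0.0258) and 1.00 ± 0.17 (1.99-fold, adjusted p = 0.000907), and Rrp1b, a nucleolar protein of the same pathway, by 0.67 ± 0.22 (adjusted p = 0.0484) and 0.61 ± 0.18 (adjusted p = 0.0242). In WT, the calls of Noc3l and Rrp1b were each kept in 1 of 6 fits without one array, the one without control replicate 1 for Noc3l and without control replicate 2 for Rrp1b, and the knockout call of Rrp1b in 2. The other 2 probes of Rrp1b passed in WT, at 0.78 (adjusted p = 0.0269) and 1.20 (adjusted p = 0.00318). In Mapk9 KO they gave 0.56 (adjusted p = 0.0539, and 0.0174 with the block) and 0.68 (adjusted p = 0.0495, and 0.0566 with the block). Mrto4, a stalk assembly factor, stood at 0.47 ± 0.21 in WT and 0.01 ± 0.17 in Mapk9 KO. Over the 13 large subunit genes of both kinds, 7 (53.8%) passed the adjusted p in WT and 9 (69.2%) in Mapk9 KO, against 12.7% and 18.1% of all genes.

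DEAD-box RNA helicases unwind the precursor RNA at different steps. Of 7 genes, 6 were above 0 in each genotype, 0 passed the test in WT, against 12.7% of all genes called higher, and 1, Ddx10, in Mapk9 KO (14.3%, against 18.1%). With the block Ddx54 was the second in Mapk9 KO. Ddx10 stood at 0.22 ± 0.28 in WT (adjusted p = 0.614) and rose by 0.73 ± 0.20 in Mapk9 KO (adjusted p = 0.0161), and its second probe gave -0.35 (adjusted p = 0.504) and 0.84 (adjusted p = 0.0111). The knockout call was lost without control replicate 2 or injured replicate 1 or 3. Ddx21, a helicase that also binds RNA polymerase I templates, stood at 0.54 in WT and 0.19 in Mapk9 KO, and Ddx54 at 0.51 and 0.41. On their brightest probes, Ddx27, Ddx47 and Ddx52 lay between 0.19 and 0.36 in WT and 0.05 and 0.31 in Mapk9 KO. The second probe of Ddx27 passed in Mapk9 KO, at 0.65 (adjusted p = 0.0182), and stood at 0.51 in WT (adjusted p = 0.137). Ddx18, whose probe also carries the name of another locus in the non-normalized table, stood at -0.03 and -0.01.

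**Figure D3:**
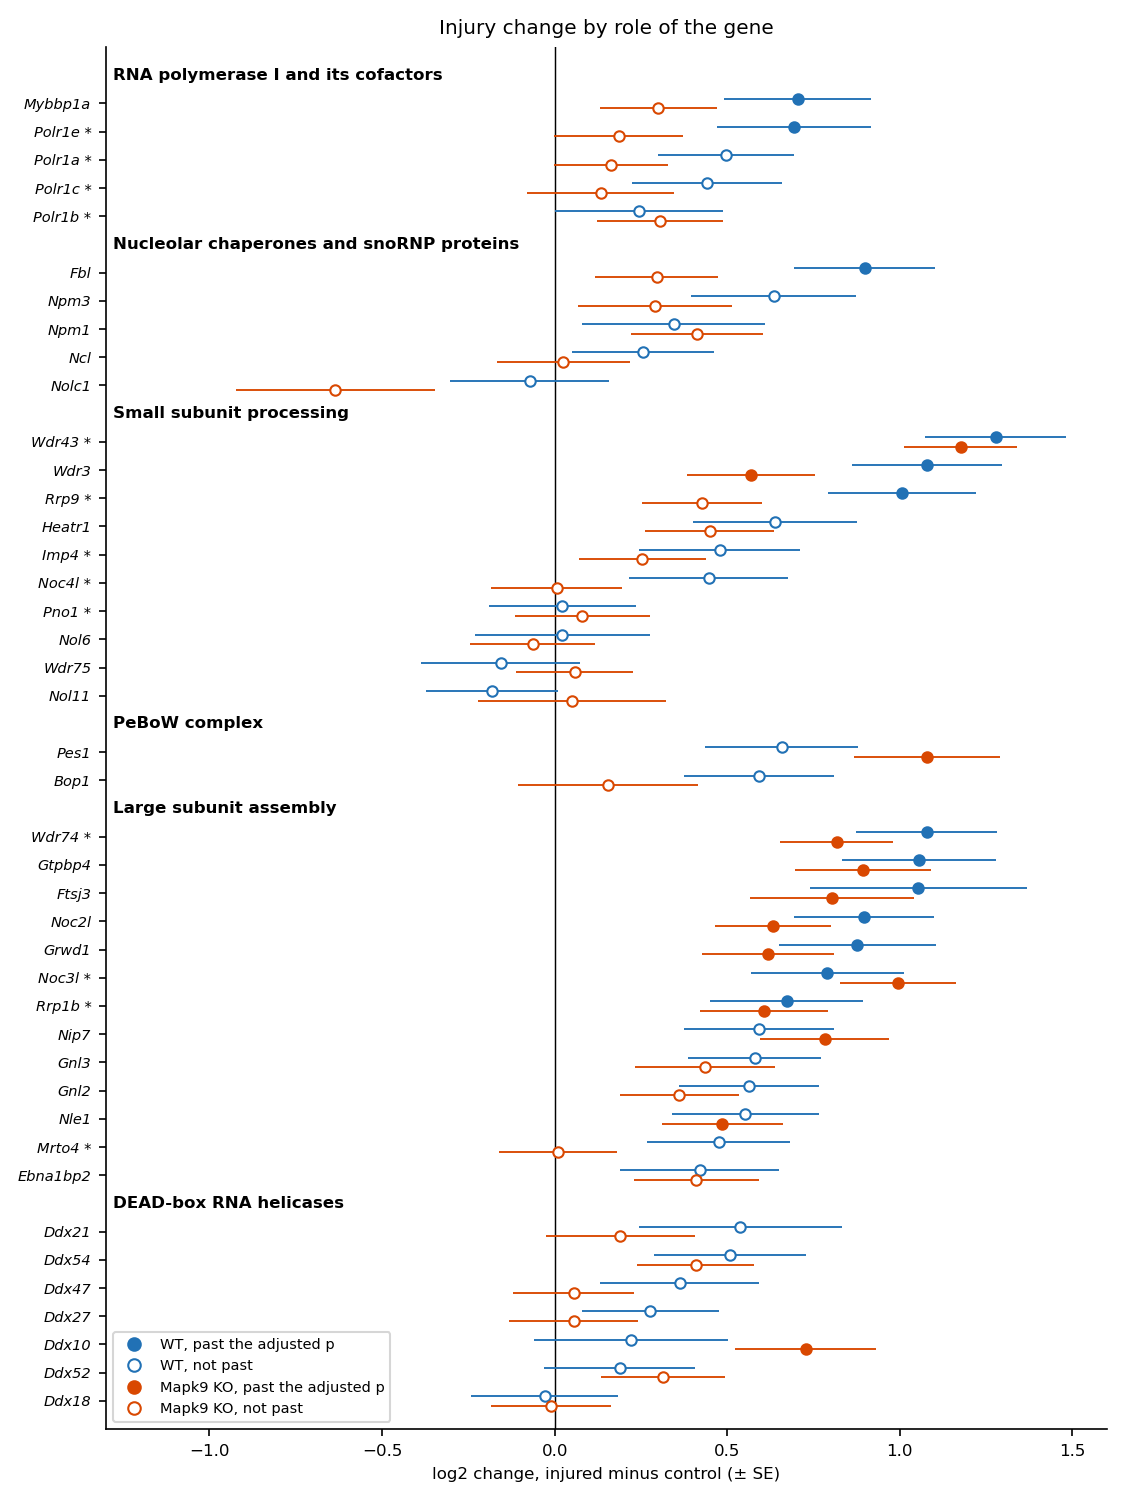
Log2 change, injured minus control, with its SE (x axis), of 42 genes grouped by role (y axis), in WT (blue) and Mapk9 KO (orange), filled where the adjusted p was under 0.05 and marked with a star where the gene was found under an older symbol. All 13 large subunit genes lie above 0 in both genotypes, with 7 and 9 filled, while none of the 7 helicases is filled in WT and 1 is filled in Mapk9 KO.

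Genotype alone made no call. Between Mapk9 KO control and WT control, 0 of the 29 genes passed the adjusted p by limma, where 0.11% of all genes did (1.98% without WT control replicate 3, still with 0 of the 29), and 0 passed by the methods' t-test with adjustment. At an unadjusted p under 0.05 it was also 0 of 29, against 6.38% of all genes. The differences lay between -0.18 and 0.45 with a median of 0.08. The smallest p values belonged to Wdr3 and Ftsj3. Wdr3 was above background on none of the 6 control arrays, so no difference between them is given. Ftsj3, detected on 3 of the 6, differed by 0.45 ± 0.29 (limma adjusted p = 0.889), and the control groups of the 2 genotypes overlapped for all 29.

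The injury change did not differ between genotypes past the test for any of the genes. For the interaction, the change in Mapk9 KO minus that in WT, 0 of 29 genes and 0 of 15424 (0%) passed the adjusted p. With the replicate block 0.441% of all genes passed, and without WT control replicate 3 it was 1.15%, in both cases with 0 of the 29. At an unadjusted p under 0.05, 1 of the 29 did, Fbl, against 8.81% of all genes. The WT change was the larger one in 21 of 29, and the median of the differences was -0.19. Fbl had the smallest p, with a difference of -0.60 ± 0.25 (limma adjusted p = 0.45), followed by Wdr3, for which both changes are bounds and no difference is given, and Mybbp1a at -0.40 ± 0.25 (adjusted p = 0.633). Under older symbols the smallest was that of Rrp9, at -0.58 ± 0.26 (adjusted p = 0.48). The SE of this difference lay between 0.24 and 0.43 over the 29 genes, so differences of that size were not detectable with 3 arrays a group.

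Among other genes of the pathway, more rose than fell. From a list of 92 further names, 47 were in the table. Past the adjusted p, 10 rose (21.3%, against 12.7% of all genes) and 0 fell in WT, with a median change of 0.36, while 12 rose (25.5%, against 18.1%) and 1 fell in Mapk9 KO, with a median of 0.23. The 7 of 47 that rose in both, where 10.8% of all genes did, were Nop56, Nop2, Rcl1, Nob1, Mdn1, Tex10 and Ruvbl2, named after their values were seen. Nop56, the core partner of fibrillarin in box C/D snoRNPs, read 9.59, 8.80 and 9.04 in WT control and 10.39, 10.16 and 10.28 in WT injured cartilage, and changed by 1.13 in WT (adjusted p = 0.00651) and 1.08 in Mapk9 KO (adjusted p = 0.000507). The 1 that fell in Mapk9 KO was Ubtf, the upstream binding factor of RNA polymerase I. It read 10.14, 10.07 and 9.90 in Mapk9 KO control and 8.89, 9.04 and 9.08 after injury, a change of -1.04 (adjusted p = 0.000696). In WT, Ubtf read 10.05, 10.43 and 9.42 in the controls and 9.50, 9.55 and 9.25 after injury, groups that overlapped, with a change of -0.53 (adjusted p = 0.175). The difference between the genotypes for Ubtf had an adjusted p of 0.629.

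The cytosolic ribosomal proteins, the products that this machinery assembles, were measured by 73 genes. In WT their median change was 0.39, with 71 of 73 above 0. In Mapk9 KO the median was 0.0043, with 38 of 73 above 0, and over all genes the medians were -0.02 and -0.04. Both leaned on single arrays: without WT control replicate 3 the WT median was 0.20, and without one Mapk9 KO array that of Mapk9 KO lay between -0.12 and 0.11. Rpl3l fell in both genotypes. It is a paralog of Rpl3 found in skeletal and heart muscle, and its change was -2.19 in WT (adjusted p = 0.0114) and -4.08 in Mapk9 KO (adjusted p = 1.21e-06). Genotype differences in this list were not past the interaction test for any gene.

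Myc, the transcription factor known for driving ribosome biogenesis genes, was near background. It read 5.73, 4.57 and 5.10 in WT control and 5.94, 5.84 and 5.97 in WT injured cartilage. Mapk9 KO arrays read 6.11, 4.81 and 5.76 in the controls and 6.89, 6.26 and 6.79 after injury. Injured arrays lay above controls in both genotypes, by 0.79 ± 0.28 in WT (adjusted p = 0.0633, and 0.0423 with the block) and 1.09 ± 0.31 in Mapk9 KO (adjusted p = 0.0181), and Myc was detected on 2 of 6 control arrays and 5 of 6 injured arrays.

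Markers of the cell types in the tissue moved with injury beside these genes. The mean level of 13 skeletal muscle markers lay between 11.39 and 12.81 in WT control and between 8.42 and 10.42 in WT injured cartilage, and between 12.86 and 13.39 and between 8.92 and 10.21 in Mapk9 KO, and 12 of 13 fell past the adjusted p in WT and 13 of 13 in Mapk9 KO. The mean of 11 chondrocyte markers went the other way, from between 10.61 and 11.09 to between 11.89 and 12.13 in WT and from between 10.45 and 11.13 to between 11.85 and 12.12 in Mapk9 KO, with 7 of 11 up in each. The list of 29 itself moved from between 9.09 and 9.35 to between 9.67 and 9.78 in WT and from between 9.24 and 9.45 to between 9.64 and 9.73 in Mapk9 KO, so that its injured and control arrays did not overlap.

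For the following lists, 12.7% of all genes rose and 12.7% fell past the adjusted p in WT, and 18.1% and 20.3% in Mapk9 KO. Neutrophil markers rose past the adjusted p in 4 of 9 in each genotype (means from 11.64 to 12.44 before and 12.94 to 13.20 after injury in WT, 12.16 to 12.50 and 12.71 to 13.20 in Mapk9 KO). Macrophage markers fell in 5 of 8 in WT and 6 of 8 in Mapk9 KO, with 2 of 8 up in each, and means of 9.46 to 9.78 before and 8.66 to 9.07 after injury in WT and 9.71 to 9.88 and 8.50 to 8.71 in Mapk9 KO. Adipocyte markers fell in 3 of 4 in each, with means of 7.65 to 9.46 before and 6.02 to 6.37 after injury in WT and 8.36 to 10.30 and 5.67 to 6.01 in Mapk9 KO. Osteoblast and osteoclast markers fell in 2 of 9 in WT, where the means overlapped (11.52 to 12.02 before and 11.36 to 11.71 after injury), and in 5 of 9 in Mapk9 KO, where they did not (11.66 to 12.07 and 10.98 to 11.24). Erythroid markers fell in 1 of 8 in WT, a share near that of all genes, with overlapping means of 11.99 to 12.59 and 12.10 to 12.30, and in 3 of 8 in Mapk9 KO, with means of 12.49 to 12.66 and 11.82 to 12.24 that did not overlap. Of 7 endothelial markers 1 rose and 0 fell in each, again near the share of all genes, with overlapping means.

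Markers of dividing cells, which also have high demand for ribosomes, did not rise in either genotype: 0 of 8 were up past the adjusted p, 1 fell in WT and 4 in Mapk9 KO, and the means lay between 9.96 and 10.58 before and 9.97 and 10.30 after injury in WT and between 10.37 and 10.68 and between 9.95 and 10.16 in Mapk9 KO. On the injured arrays 11 to 13 of the 13 muscle markers were still detected. In bulk tissue, fewer cells of a type and less RNA per cell cannot be told apart, and the part of the muscle, chondrocyte, neutrophil, macrophage, adipocyte, bone cell, erythroid and dividing cell markers in the change of the ribosome biogenesis genes was not tested.

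**Figure D4:**
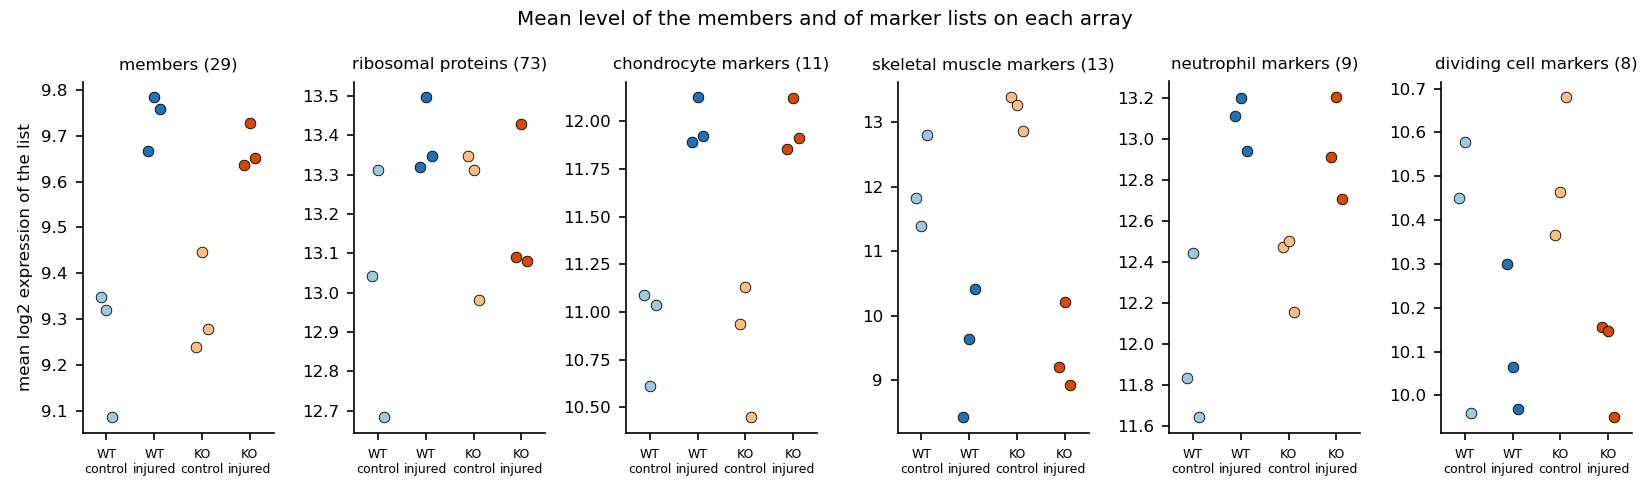
Mean log2 expression (y axis, a separate scale for each list) of the 29 ribosome biogenesis genes found by symbol, of cytosolic ribosomal proteins and of markers of 4 cell classes on each array (points), by group (x axis, KO for Mapk9 KO), with the number of genes in brackets. Injured arrays lie above control arrays for the 29 genes and the chondrocyte and neutrophil markers, and below them for skeletal muscle markers. For ribosomal proteins they overlap in Mapk9 KO and lie just above the controls in WT, and for dividing cell markers they overlap in WT and lie below the controls in Mapk9 KO.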

How the data were processed

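The authors deposited bead intensities with detection p-values for 45281 probes and, for 21004 of them, log2 values after background correction with negative control probes and vsn. The log2 values were used as deposited. Groups came from the sample labels. All 21004 probes were tested in R 4.3.3 by limma 3.58.1 (lmFit and eBayes), p-values being adjusted by Benjamini and Hochberg over all probes, on the 6 arrays of each comparison (12 for the interaction), and a gene was taken by its brightest probe. Calls needed an adjusted p under 0.05, with a fold above 2 where stated, the threshold of the methods. The fit was tested on simulated data. Where a probe was not detected on any array of a group, the fold is a bound. Genes named by rule are those past fold and adjusted p, the smallest p for interaction and genotype, Ncl, Npm1 and Fbl, and Mapk9 and Myc. Genes past the adjusted p alone were named after their values were seen, and the remaining members are given with their role group. The members, lists and tests were chosen with earlier results of these data known.

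After subtraction of group means, the 18 pairs of arrays that share a replicate number had correlations of 0.153 to 0.390 and the other 36 pairs of -0.289 to 0.0825, so the numbers were taken to pair the samples and a blocked fit was run. The methods call the replicates independent without naming the genotype; for Mapk9 KO, p-values may measure technical spread only. Alternatives were normexp with quantile normalization (neqc, offset 16), quantile normalization alone, array medians subtracted, a detection filter (3 or more arrays), a shared fit of all 12 arrays, blocks by replicate or label code number, the methods' t-test, any probe of a gene, no fold limit and leaving out each array. The number of arrays limits the precision. One result on ribosomal protein genes is not reported here.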

Additional observations from a re-analysis of the deposited data

How the results depend on the processing

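The median changes of the 29 genes stayed above 0 under each alternative run, at 0.40 to 0.60 in WT and 0.27 to 0.37 in Mapk9 KO across the scalings, and at 0.436 to 0.573 and 0.286 to 0.444 without one array. Counts moved more. The 3 genes past fold and adjusted p in WT were 1 by the methods' t-test, 0 with quantile normalization alone, 6 with the genes under an older symbol, 7 with no fold limit, and 1 to 5 without one array (5 without control replicate 1, 1 without control replicate 3 or injured replicate 3). By fold and adjusted p, 4.81% of all genes rose with the t-test, 3.49% with quantile normalization alone and 6.96% to 7.92% without one array. The 1 gene in Mapk9 KO was 0 with quantile normalization alone, 2 by any probe, 2 with the older symbols, 9 with no fold limit, and 0 to 2 without one array (0 without control replicate 1 or injured replicate 3, 2 without control replicate 2 or 3). In that genotype 4.53% of all genes rose by this rule with quantile normalization alone and 8.84% to 9.40% without one array. Under quantile normalization alone the counts by adjusted p alone were 15 in WT and 15 in Mapk9 KO, against 7 and 9, where 14.5% and 21.1% of all genes rose. By adjusted p alone, WT gave 13 with all 12 arrays in the fit, 4 by the methods' t-test, 13 with the older symbols and 4 to 9 without one array (4 without injured replicate 2 or 3). The shares of all genes that rose in WT were 15.4% with all 12 arrays, 6.53% by the t-test and 8.40% to 13.4% without one array. Mapk9 KO gave 4 by the t-test, 14 with the replicate block (13 higher, 1 lower) and 5 to 8 without one array (5 higher without control replicate 1 or 2 or any one injured array, with 1 lower beside them without injured replicate 1). With the replicate block WT gave 10, where 14.5% of all genes rose. By role, that fit took the Mapk9 KO counts from 2 to 4 of 10 small subunit genes, 1 to 2 of 7 helicases and 0 to 1 higher and 1 lower of 5 chaperones, and the WT chaperones from 1 to 2. Counts by adjusted p alone and with older symbols were chosen after seeing the data. Genotype stayed at 0 of the 29 under each alternative, and so did the interaction, for which the methods' t-test was not run. Signs turned for Ddx10 in WT (-0.056 without injured replicate 1, up to 0.438 without injured replicate 2) and for Ncl in Mapk9 KO (-0.0481 without control replicate 1, -0.0643 without control replicate 3, -0.0505 without injured replicate 2, up to 0.187 without control replicate 2), none past the test. Over all 29 genes, signs turned without one array for 4 in WT and 8 in Mapk9 KO, none past the test, and the largest change among these was 0.22 in WT and 0.15 in Mapk9 KO. Of the other values of the 19 genes named for their level or call, 440 kept their side of the threshold, 69 lost it and 19 gained it. The causes were not tested. Wdr3, Ftsj3, Nolc1 and Myc lie near background, which limits their folds.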
